A study of Mus musculus with 12 samples.

Results

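The genes described here encode heterogeneous nuclear ribonucleoproteins (hnRNPs) and serine/arginine-rich (SR) splicing factors. Members were chosen by annotation: rows of the deposited gene table that were protein coding, lay outside patch sequences and had a symbol beginning with Hnrnp, or with Srsf and a digit. The rule held for 31 of 53028 genes, 20 Hnrnp and 11 Srsf. No measured value enters that rule, but the family itself was selected on earlier results for gene and transcript levels in these libraries, so counts and medians describe it and support nothing. The first count of each comparison is given beside the share of all features called in it. All 31 members passed the filter on low values, which asked for 3 or more of the 12 libraries to reach a CPM of 1, CPM being reads scaled to a common effective library size. Their transcripts in the classes used here numbered 245, of which 135 were coding, 35 from 19 genes were annotated for nonsense-mediated decay (NMD) and 75 from 22 genes were annotated as retaining an intron.

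Poly(A) RNA of the retina was measured in C57BL/6J mice that were wild type (Pilrb1/2+/+) or homozygous for a deletion (Pilrb1/2 -/-), at 28 days (P28) and at 12 months of age, with 3 libraries in each of the 4 groups. The deletion was made by CRISPR in zygotes and passed on through a founder crossed to C57BL/6J. The series text says that it removed Pilra as well as Pilrb1/2, while the sample labels name Pilrb1/2. It is carried by every cell of the animal. Since nothing in the labels ties libraries to animals, p-values measure only the spread between these libraries, which may be technical.

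Effective depth, read from the commonest lowest value of each library, was 15.6 to 27.1 M reads, and 3 reads corresponded to 0.111 to 0.192 CPM. Pilrb1 and Pilrb2 were each listed at 0 in 11 of 12 libraries, wild-type ones included, so they do not check the genotype labels. Pilra was low but above 0 in all 12. It measured 0.133, 0.167 and 0.1705 CPM in P28 wild type and 0.441, 1.16 and 0.819 in P28 knockout, the knockout being higher. At 12 months it measured 0.159, 0.221 and 0.268 in wild type and 0.0556, 0.309 and 0.293 in knockout. The labels give no sex. Xist exceeded 100 CPM in 2 P28 knockout libraries (replicates 2 and 3) and 2 wild-type libraries of 12 months (replicates 1 and 2), and in no library of P28 wild type or 12-month knockout. The 6 rod photoreceptor markers, which are abundant in retina and were above 0 in every library, summed to 29878 to 40396 CPM in P28 wild type, 20361 to 26472 in P28 knockout, 33854 to 40914 in 12-month wild type and 19947 to 26813 in 12-month knockout. In bulk RNA, fewer cells of a type and less RNA per cell cannot be told apart. Markers of erythrocytes (4 of 5 above 0 in every library) summed to 4.33 to 9.94 CPM in 12-month knockout and 12.6 to 49.6 in the other groups, and the 8 lens markers (5 above 0 in every library) to 2057 CPM in P28 knockout replicate 2, 12.9 and 48.2 in the other 2 libraries of its group and at most 803 elsewhere. The mitochondrial share was 9.94 to 12.6% among 12-month knockout libraries and 4.56 to 9.31% elsewhere, lowest in P28 knockout replicate 2. The part of the marker and mitochondrial differences in the results below was not tested, and sex was tested only through the sex term named there.

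hnRNPs coat the nascent transcript and often repress nearby splice sites, whereas SR proteins carry RNA recognition motifs and an arginine/serine-rich domain and as a rule promote the use of the exons they bind. The balance between both families sets much of alternative splicing, and many members also act in mRNA export, stability and translation. Both families limit their own levels through poison exons, cassette exons with an in-frame stop codon whose inclusion sends the transcript to NMD, and through introns that are left in the transcript and keep it in the nucleus. Neurons, photoreceptors among them, use many exons that other tissues skip, and mutations in general splicing factors cause retinal degeneration.

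In the GENCODE M21 annotation of GRCm38, 9 of the 35 NMD transcripts had their stop codon in a cassette exon that the gene's coding transcripts skip, 1 (Srsf6-201) in one that some coding transcripts skip, 11 shared the stop codon of a coding transcript, 12 had another stop in an exon that overlaps a coding one, and 2 had it in a first exon that no coding transcript has. All 35 had the stop over 50 bases before the last exon junction. Poison exons of NMD transcripts named below are shown here, and not all of these transcripts changed in level. Each is printed from the first base of the exon to its stop codon, which is in capitals, in the direction of the transcript. Srsf3-201 carries a 456-base exon at chr17:29039454-29039909 on the plus strand. The exon of Srsf7-203 spans 460 bases at chr17:80204622-80205081 on the minus strand, that of Srsf6-201 268 bases at chr2:162932815-162933082 on the plus strand, and that of Srsf4-203 207 bases at chr4:131884276-131884482 on the plus strand. Those of Hnrnpl-213 (70 bases, chr7:28817335-28817404, plus strand) and Hnrnpll-203 (83 bases, chr17:80044940-80045022, minus strand) are the 2 cassette cases among the Hnrnp genes.
Srsf3-201: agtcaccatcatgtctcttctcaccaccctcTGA
Srsf7-203: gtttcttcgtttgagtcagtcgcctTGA
Srsf6-201: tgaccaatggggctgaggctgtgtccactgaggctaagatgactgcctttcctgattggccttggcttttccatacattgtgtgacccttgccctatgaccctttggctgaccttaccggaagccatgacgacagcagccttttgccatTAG
Srsf4-203: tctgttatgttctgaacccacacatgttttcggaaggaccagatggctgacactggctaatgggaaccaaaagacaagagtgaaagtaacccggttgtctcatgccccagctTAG
Hnrnpl-213: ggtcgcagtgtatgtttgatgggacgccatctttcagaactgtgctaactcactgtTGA
Hnrnpll-203: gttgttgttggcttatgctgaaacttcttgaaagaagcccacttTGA

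Members differed widely in level. Per length, as the sum of a gene's transcript RPKM averaged over the 12 libraries, Hnrnpa2b1, which binds A/G-rich RNA and sorts mRNA to neuronal processes, was highest at 884, followed by Hnrnpk at 518, Hnrnph1 at 484, Srsf5 at 294 and Hnrnpu at 289.6. The lowest were Srsf9 at 21.0 and Srsf12, an SR-related protein that opposes SR proteins, at 4.95. By CPM of the listed rows, which does not correct for length, the most abundant were Hnrnpa2b1, Hnrnpu and Hnrnph1 and the least abundant Srsf12, Srsf9 and Srsf4. Hnrnpa2b1 measured 1000.2, 1127 and 1107 CPM in P28 wild type, 1294, 1036 and 1399 in P28 knockout, 1059, 1170.1 and 1088 in 12-month wild type and 1672, 1837 and 1540.2 in 12-month knockout. At the other end, Srsf12 measured 11.0, 14.8 and 12.1 CPM in P28 wild type, 16.4, 10.5 and 13.7 in P28 knockout, 10.4, 11.1 and 9.61 in 12-month wild type and 10.7, 12.6 and 12.7 in 12-month knockout. Srsf9 stayed between 18.2 and 22.7 CPM in all 12 libraries. Srsf1 and Hnrnpu each have a second row with identical values on a patch sequence, so their listed values are shared with that copy, and the 2 rows summed to 848 and 1832 CPM on average. Summed so, Hnrnpu came above Hnrnpa2b1 (1277.5 CPM on average) and Srsf1 above Hnrnph1 (833 CPM). Both orders given here use the single listed rows, and the RPKM order was not redone with the copies.

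At P28, of the 31 members, 1 fell in knockout against wild type and none rose, where 1.49% of all 16486 genes tested were called (1.0% higher and 0.491% lower). The member was Hnrnpa1, a repressor of exon inclusion that competes with Srsf1. It measured 513, 479 and 536 CPM in P28 wild type, 325, 341 and 345 in P28 knockout, 514, 535 and 523 in 12-month wild type and 589.6, 622 and 577 in 12-month knockout. All 3 P28 knockout libraries lay below the other 9, and the 12-month knockout libraries were the highest. On the log2(CPM + 1) scale the P28 difference was -0.59 ± 0.07, adjusted p = 0.00991 in limma, from 509 ± 28.3 to 337 ± 10.5 CPM (SD, n = 3). Hnrnpdl, a relative of hnRNP D, measured 339, 377 and 381 CPM in P28 wild type and 278, 295 and 310.2 in P28 knockout, which did not overlap but did not pass (-0.31 ± 0.09, adjusted p = 0.0829). Over the members the median change was 0.02 against -0.01 for all genes, with 17 members above 0 and 14 below. The Hnrnpa1 call was lost without P28 wild-type replicate 1 (adjusted p = 0.0502) or 3 (adjusted p = 0.0702), with a sex term (adjusted p = 0.0971), and with only the P28 libraries in the fit. With smooth trends of GC content and length removed from each library, Hnrnpa1 (-0.61), Hnrnpdl (-0.35) and Srsf3 (-0.30) were called lower and none higher, where 1.03% of genes were lower and 0.799% higher.

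At 12 months, 20 of the 31 members rose in knockout against wild type and 2 fell. Over all genes 16.1% rose and 23.5% fell, 39.6% in either direction. The median change of the members was 0.37 on the log2 scale, that of all genes tested -0.03, and 26 members were above 0. Summed over the members, the signal was 10202 to 10801 CPM in P28 wild type, 9730 to 11887 in P28 knockout, 10502 to 11147 in 12-month wild type and 13172 to 14902 in 12-month knockout. The 12-month knockout libraries were thus the 3 highest, and the other groups overlapped.

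**Figure D1:**
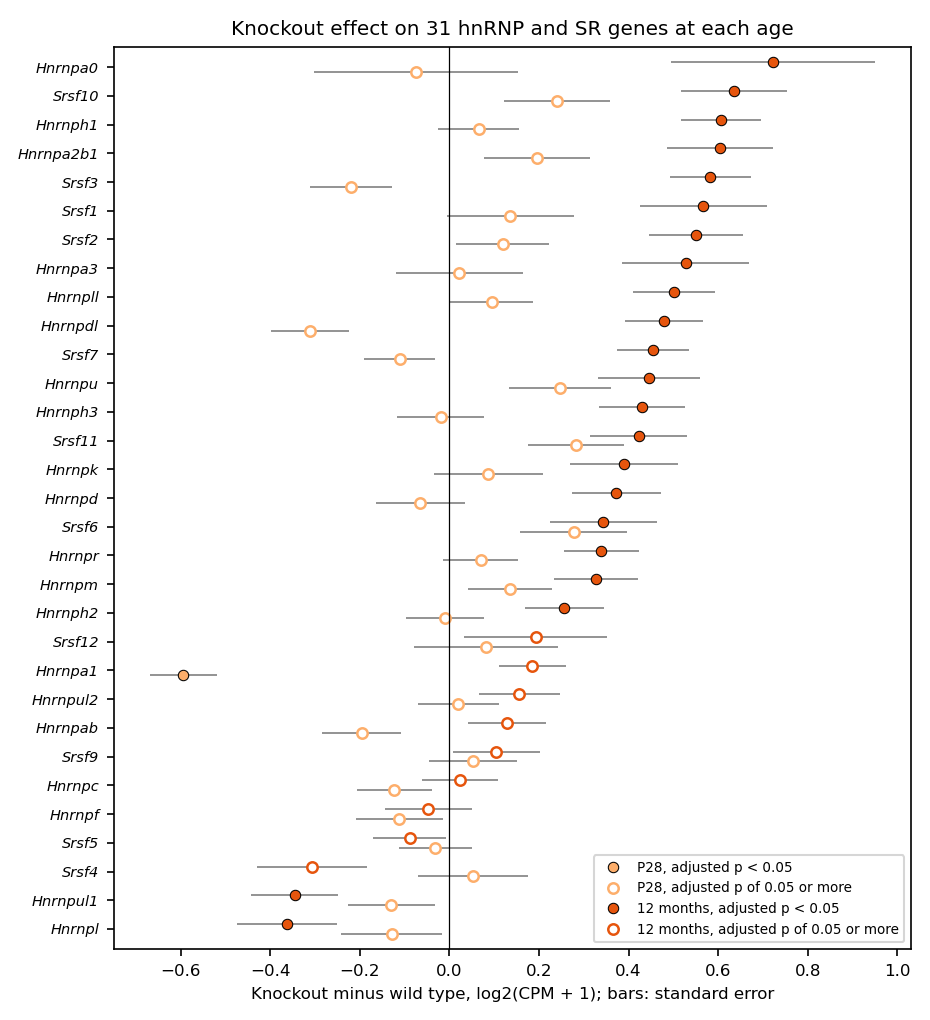
Knockout minus wild-type difference of log2(CPM + 1) for each of the 31 members at P28 (light points) and 12 months (dark points), with standard errors, filled where limma's adjusted p was under 0.05. The 12-month points lie to the right of 0 for 26 members, from -0.36 (Hnrnpl) to 0.72 (Hnrnpa0), and at P28 only Hnrnpa1 is filled, at -0.59.

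Among the A/B and D group hnRNPs, Hnrnpa0, Hnrnpa2b1, Hnrnpa3, Hnrnpd and Hnrnpdl rose, and Hnrnpa1 (0.19 ± 0.07, adjusted p = 0.0642) and Hnrnpab (0.13 ± 0.09, adjusted p = 0.258) did not pass. Hnrnpdl, which binds AU-rich and G-rich RNA, was 362, 389 and 398 CPM in wild type and 545, 572 and 488 in knockout, a difference of 0.48 ± 0.09, adjusted p = 0.00316. Hnrnpa0 had the largest estimate, 0.72 ± 0.23, adjusted p = 0.0247, on libraries of 78.3, 87.0 and 97.8 against 129, 173 and 136 CPM. It is a gene of 55.4% GC, and its estimate became 1.29 with GC and length trends removed. The Hnrnpa0 call was lost with a sex term (adjusted p = 0.166 in limma), and without 12-month wild-type replicate 1 or 2 or knockout replicate 2.

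In the F/H group, whose proteins bind runs of G, Hnrnph1, Hnrnph2 and Hnrnph3 rose and Hnrnpf did not pass (-0.05 ± 0.10, adjusted p = 0.725). Hnrnph1 measured 693, 736 and 712 CPM in P28 wild type, 753, 674 and 820.0 in P28 knockout, 702, 752 and 769 in 12-month wild type and 1091, 1189 and 1104 in 12-month knockout. The 3 knockout libraries of 12 months were the only ones above 1000 CPM, with 1128 ± 53.4 against 741 ± 34.5 CPM (SD, n = 3) and a difference of 0.61 ± 0.09, adjusted p = 0.00256. Hnrnph3 went from 192, 212 and 229 CPM to 270.4, 298 and 286 CPM in knockout (0.43 ± 0.10, adjusted p = 0.00591).

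Of the other hnRNPs, Hnrnpk, which binds C-rich sequence, Hnrnpm, Hnrnpr, Hnrnpu, a scaffold protein of nuclear RNA and chromatin, and Hnrnpll rose, by 0.33 (Hnrnpm) to 0.50 (Hnrnpll). Hnrnpll, which directs activation-dependent exon skipping in lymphocytes, was 91.2, 94.7 and 95.3 CPM in wild type and 136, 139 and 124 in knockout (0.50 ± 0.09, adjusted p = 0.00317). Its paralog Hnrnpl, which binds CA repeats, went the other way. Hnrnpl measured 312, 316 and 292 CPM in P28 wild type, 287, 305 and 252 in P28 knockout, 332, 327 and 345 in 12-month wild type and 271, 217 and 300.0 in 12-month knockout, and the 12-month libraries of both genotypes did not overlap (-0.36 ± 0.11, adjusted p = 0.023). Hnrnpul1, an hnRNP U-like protein, also fell, from 108, 99.3 and 101.8 to 87.8, 71.3 and 84.5 CPM (-0.35 ± 0.10, adjusted p = 0.0149). Hnrnpc, which shields uridine tracts, and Hnrnpul2 did not pass, with estimates of 0.02 ± 0.08 and 0.16 ± 0.09. Of the 20 Hnrnp genes 13 rose and 2 fell.

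Of the 11 Srsf genes 7 rose and none fell. Among the classical SR proteins these were Srsf1, Srsf2, Srsf3, Srsf6 and Srsf7, and among the SR-like ones Srsf10 and Srsf11. Srsf3, which also acts in mRNA export and 3′-end processing, measured 395, 383 and 415 CPM in P28 wild type, 344, 309.6 and 373 in P28 knockout, 363, 370.3 and 396 in 12-month wild type and 558, 614 and 524 in 12-month knockout. It was highest in the 3 knockout libraries of 12 months, the other groups lying close together or overlapping, with a 12-month difference of 0.58 ± 0.09, adjusted p = 0.00256. Srsf7, a close relative of Srsf3 with a zinc knuckle, was 228, 235 and 241 CPM in wild type and 327, 347 and 295 in knockout (0.45 ± 0.08, adjusted p = 0.00298). Srsf10, a splicing repressor when dephosphorylated, measured 241, 252 and 255 CPM in P28 wild type, 286, 251 and 357 in P28 knockout, 235, 257 and 231 in 12-month wild type and 388, 404 and 336 in 12-month knockout. Its difference at 12 months was 0.64 ± 0.12, adjusted p = 0.00329, and P28 knockout replicate 3 came above the lowest of the 12-month knockout libraries. Srsf4, Srsf5, Srsf9 and Srsf12 did not pass. Of these, Srsf4 had 70.5, 61.7 and 66.8 CPM in the wild-type libraries against 57.3, 44.3 and 59.9 in the knockout ones (-0.31 ± 0.12, adjusted p = 0.0627).

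**Figure D2:**
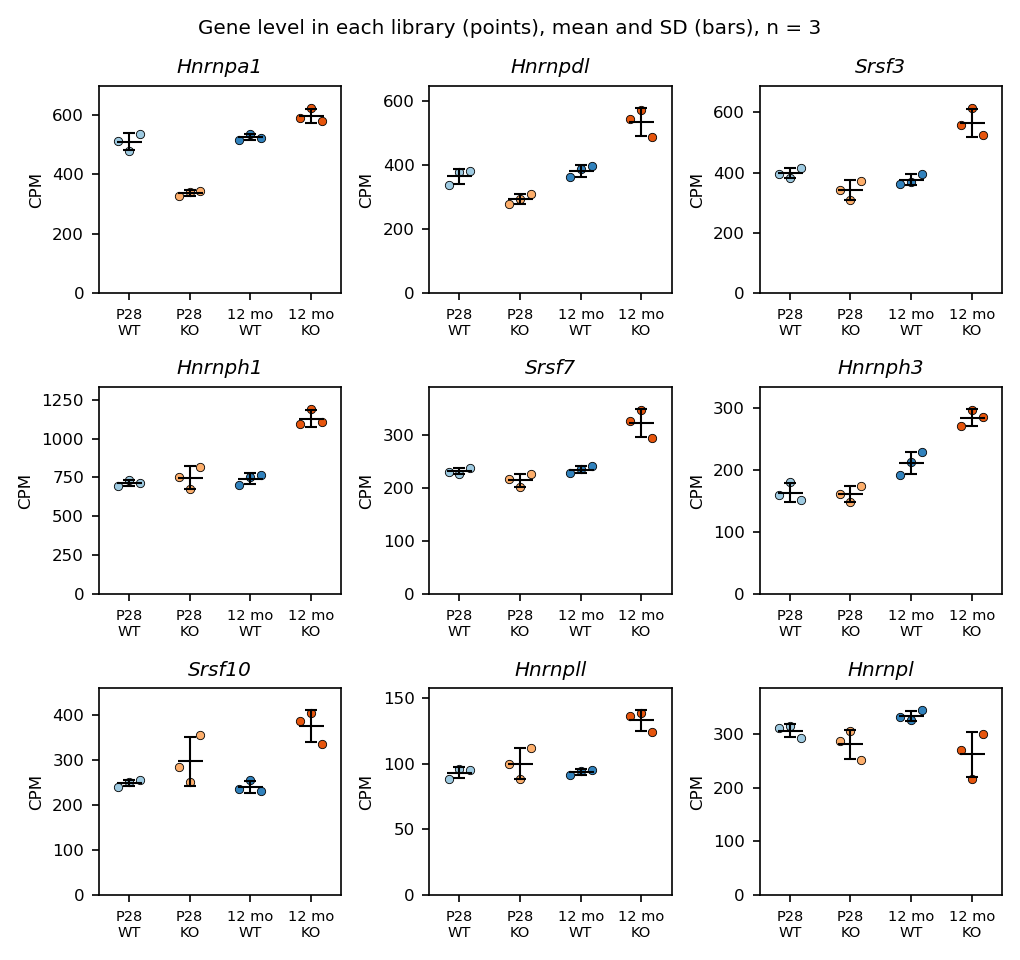
CPM in each library (points) of 9 members, with the mean and SD of each group of 3 (bars), on axes that start at 0. The 12-month knockout libraries are the highest 3 in 7 panels, but not for Srsf10, where P28 knockout replicate 3 overlaps them, or for Hnrnpl, and the P28 knockout libraries are the lowest 3 for Hnrnpa1, Hnrnpdl and Srsf7.

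GC content moved with these changes. The median GC content of the members' transcripts was 44.2%, against 48.6% over the tested genes, and the Spearman correlation of GC content with the 12-month change was -0.56 across the 31 members and -0.79 across 16274 genes, which share the same libraries. With GC and length trends removed from each library, 4 members were called higher (Hnrnpa0, Srsf2 at 0.41, Srsf10 at 0.32 and Hnrnpll at 0.25) and Srsf5 lower (-0.42), where 2.26% of genes were higher and 2.18% lower, and the members' median became 0.18 against -0.01. Of the 22 members called, Hnrnph2 (-0.04) and Hnrnpul1 (0.06) then had the opposite sign, and Hnrnpu (0.03), Hnrnpk (0.06), Srsf7 (0.07) and Hnrnpa3 (0.10) were near 0. With a sex term 16 members rose and none fell, where 30.1% of genes were called. With both, chosen after seeing the data, none was called, no other gene was called either, and 11 members were at an unadjusted p under 0.05. Without 12-month knockout replicate 2, 13 members and 21.5% of all genes were called.

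**Figure D3:**
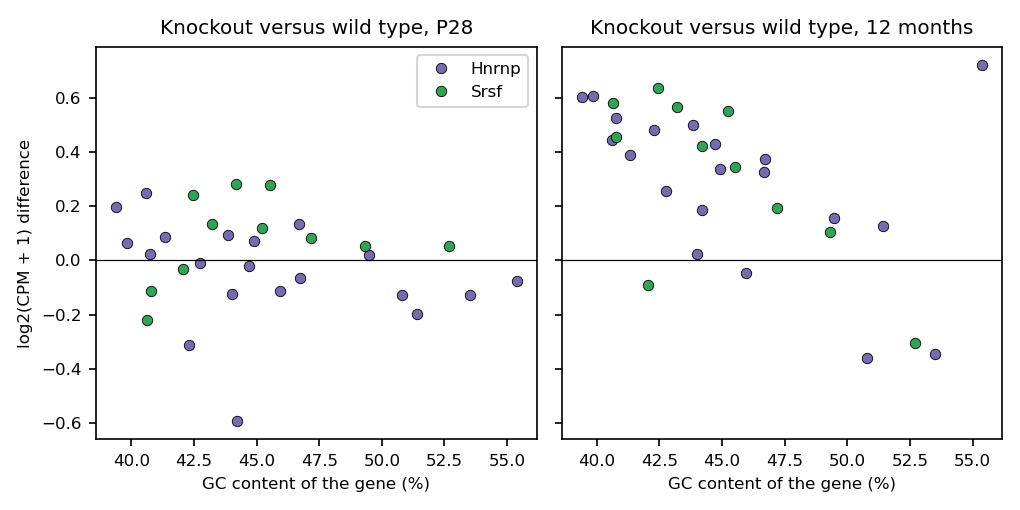
GC content of each member's transcripts in percent against its knockout minus wild-type difference of log2(CPM + 1) at P28 and at 12 months, Hnrnp and Srsf genes in separate colours. At 12 months the differences decline with GC content (Spearman -0.56 over 31 members), Hnrnpa0 at 55.4% GC being the point at the upper right.

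Each genotype was also compared between the ages. In wild-type retina 1 member rose from P28 to 12 months and none fell, where 5.4% of genes were called (3.65% higher and 1.75% lower). It was Hnrnph3, with 159, 180.3 and 151 CPM in P28 wild type, 161, 148 and 175 in P28 knockout, 192, 212 and 229 in 12-month wild type and 270.4, 298 and 286 in 12-month knockout. In wild type the 12-month libraries lay above the P28 ones, by 0.37 ± 0.10, adjusted p = 0.0439. That call was lost with a sex term and without any one of 8 libraries, so it lies near the threshold.

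In knockout retina 16 members rose with age and none fell, where 13.3% of genes rose and 13.9% fell (27.2% in all). The median change was 0.35 for the members and -0.04 for all genes. By size of p the first were Hnrnpa1 (0.82 ± 0.07, adjusted p = 2.33e-05), Hnrnpdl (0.86 ± 0.09, adjusted p = 5.17e-05), Hnrnph3 (0.82 ± 0.10, adjusted p = 0.00015) and Srsf3 (0.72 ± 0.09, adjusted p = 0.000248). Srsf7 (0.58 ± 0.08) and Hnrnph1 (0.59 ± 0.09) followed. These 6 were named from called members whose P28 and 12-month knockout libraries did not overlap, so their lack of overlap is no result. This comparison shares its 12-month knockout libraries with the genotype comparison at 12 months, so the 2 are not independent. Of the 16, 12 were also called higher with GC and length trends removed (11.5% of genes higher and 9.73% lower). That setting called 15 members in all, among them Hnrnpa0 higher (0.96, adjusted p = 0.0321 in limma) and Hnrnpf lower (-0.27, adjusted p = 0.0343). Without 12-month knockout replicate 2, 10 members and 15.0% of all genes were called. With only the knockout libraries in the fit 7 members and 9.52% of all genes were called.

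The knockout effect differed between the ages for 3 members, all with a higher value at 12 months, where 0.176% of genes were called (0.0789% higher and 0.0971% lower). Over all members the median difference was 0.30, over all genes -0.05. For Hnrnpa1 the effect went from -0.59 ± 0.07 at P28 to 0.19 ± 0.07 at 12 months, a difference of 0.78 ± 0.11, adjusted p = 0.0244. Hnrnpdl went from -0.31 ± 0.09 to 0.48 ± 0.09 (difference 0.79 ± 0.12, adjusted p = 0.041). The corresponding values of Srsf3 were -0.22 ± 0.09 and 0.58 ± 0.09 (difference 0.80 ± 0.13, adjusted p = 0.041). The libraries with Xist over 100 CPM all belong to P28 knockout and 12-month wild type, the groups that are subtracted in this difference. No member was called with a sex term (6 at an unadjusted p under 0.05) or with GC and length trends removed (11 at that p, 0.0123% of genes called). None was called either without any one of 9 libraries, while 13 were called without P28 knockout replicate 3 (15.2% of all genes), 5 without 12-month knockout replicate 3 (4.86%) and 4 without P28 knockout replicate 2 (1.43%).

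At the level of transcripts, 2 of the 199 member transcripts tested fell in knockout at P28 and none rose, where 0.298% of 46931 transcripts were called. Srsf5-201, a coding transcript of an SR protein that responds to insulin, measured 37.6, 33.0 and 25.0 RPKM in P28 wild type, 11.0, 7.94 and 9.77 in P28 knockout, 31.1, 20.7 and 19.8 in 12-month wild type and 17.4, 20.1 and 13.5 in 12-month knockout. The P28 knockout libraries were below the other 9 (-1.68 ± 0.22, adjusted p = 0.0249 on log2(RPKM + 0.5)). Of the 1527 bases of Srsf5-201, 1495 are shared with another coding transcript, Srsf5-202, so its values are estimates that divide shared reads. Hnrnpa1-202, the most abundant coding form in wild type, measured 163, 137 and 172 RPKM in P28 wild type, 74.7, 74.2 and 82.4 in P28 knockout, 151, 157 and 149 in 12-month wild type and 109, 89.9 and 142 in 12-month knockout. It was lowest in the P28 knockout too (-1.02 ± 0.15, adjusted p = 0.038). Both calls were lost with a sex term, under which 0 transcripts passed and 27 were at an unadjusted p under 0.05.

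At 12 months 47 of 199 member transcripts rose in knockout and 17 fell, where 6.56% of all transcripts rose and 10.6% fell. Retained-intron transcripts accounted for 22 of the rises and 2 of the falls among 64 tested (8.61% of all such transcripts rose and 7.4% fell), with a median of 0.58 for the members' and 0.02 for all. Coding transcripts rose in 23 cases and fell in 11 of 107 (6.28% and 14.3% of all), and NMD transcripts rose in 2 and fell in 4 of 28 (4.64% and 8.29% of all). Hnrnpk-204, which retains an intron, measured 8.22, 9.48 and 8.08 RPKM in P28 wild type, 12.0, 9.19 and 15.4 in P28 knockout, 7.04, 7.72 and 7.24 in 12-month wild type and 16.3, 19.3 and 15.1 in 12-month knockout. The 12-month knockout libraries held the 2 highest values, and P28 knockout replicate 3 came above the third (1.15 ± 0.17, adjusted p = 0.00925). Srsf3-204, another retained-intron transcript, measured 13.7, 14.6 and 15.0 RPKM in 12-month wild type and 25.2, 24.1 and 22.3 in knockout (0.71 ± 0.11, adjusted p = 0.0099), and Srsf10-202, a coding one, at 8.71, 9.51 and 6.75 and 15.5, 15.8 and 15.9 (0.89 ± 0.13, adjusted p = 0.00925). The most abundant intron-retaining transcript that rose was Hnrnpa2b1-211, named here after its values were seen. It went from 135, 155 and 162 to 290.1, 373 and 281 RPKM (1.05 ± 0.25, adjusted p = 0.0229). The number of member transcripts called at 12 months was 4 without 12-month wild-type replicate 1 (0.803% of all transcripts called), 31 and 30 without its replicates 2 and 3 (8.52% and 4.87%), 40 and 16 without 12-month knockout replicates 1 and 2 (9.34% and 3.19%), and 97 without P28 knockout replicate 2 (25.8%), the library with the highest lens marker sum. GC and length trends were removed from gene values only, so their part in transcript values and ratios was not tested.

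With age, no member transcript was called in wild type (0.82% of all transcripts were), 18 being at an unadjusted p under 0.05. In knockout 25 rose and 8 fell (4.41% and 3.6% of all). Srsf3-202, the only coding transcript of Srsf3 listed, measured 63.3, 52.1 and 68.6 RPKM in P28 wild type, 32.9, 37.4 and 38.5 in P28 knockout, 70.8, 74.2 and 81.5 in 12-month wild type and 109, 135 and 101 in 12-month knockout. The 4 groups did not overlap, and the knockout was the lowest group at P28 and the highest at 12 months. The change with age in knockout was 1.64 ± 0.14, adjusted p = 0.000179, and the 12-month difference between genotypes 0.59 ± 0.14, adjusted p = 0.0205. Hnrnpd-202, coding for the AU-rich element binding protein AUF1, measured 12.3, 11.2 and 13.6 RPKM in P28 knockout and 23.5, 35.7 and 27.3 in 12-month knockout (1.17 ± 0.16, adjusted p = 0.00277).

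In several members the coding isoforms of one gene had unlike values at 12 months. Hnrnpl-202 measured 18.39, 16.30 and 14.09 RPKM in P28 wild type, 12.06, 13.32 and 5.10 in P28 knockout, 17.97, 11.91 and 12.80 in 12-month wild type and 0.00, 0.00 and 0.10 in 12-month knockout, the last 3 values corresponding to 0, 0 and 3.23 reads. It was the one transcript of the members whose knockout effect differed between the ages, where 0.0107% of all transcripts were called. The fitted differences, -4.77 ± 0.30 at 12 months (adjusted p = 0.000124) and -4.02 ± 0.43 between the ages (adjusted p = 0.0183), depend on the pseudocount of 0.5 RPKM and are no bound. The call for the difference between ages was lost with a sex term, with a replicate block, and without any one wild-type library, P28 knockout replicate 1 or 12-month knockout replicate 2. Another coding form, Hnrnpl-201, measured 3.91, 5.13 and 7.18 RPKM in 12-month wild type and 9.64, 7.66 and 11.7 in 12-month knockout (0.80 ± 0.28, adjusted p = 0.0748). Compared base by base in the annotation, 52 bases of 5′ UTR are found only in Hnrnpl-202. Only in Hnrnpl-201 are 258 coding bases, 21 bases of 5′ UTR and 17 of 3′ UTR. Coding bases number 1368 in Hnrnpl-202 and 1758 in Hnrnpl-201.

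Hnrnpf-204 measured 26.56, 21.00 and 18.62 RPKM in P28 wild type, 13.18, 17.98 and 2.23 in P28 knockout, 20.80, 18.94 and 14.70 in 12-month wild type and 0.00, 0.00 and 0.00 in 12-month knockout, so that it was listed at 0 in all 3 knockout libraries of 12 months. Hnrnpf-209 was listed at 0 in all 6 wild-type libraries and at 4.25, 0.00 and 13.18 in P28 knockout and 12.42, 8.18 and 10.90 in 12-month knockout. Hnrnpf-204 is a 3′-incomplete model whose 1104 bases all lie within Hnrnpf-209, and the gene itself did not pass at 12 months. The other pairs named here were picked after their values were seen. Hnrnpa1-205, which lacks 156 coding and 40 5′ UTR bases of Hnrnpa1-202, measured 0.58, 0.00 and 0.00 RPKM in P28 wild type, 0.00, 6.04 and 1.62 in P28 knockout, 0.00, 3.32 and 0.00 in 12-month wild type and 64.59, 105.64 and 25.33 in 12-month knockout, above all other libraries in the 12-month knockout (5.84 ± 0.99, adjusted p = 0.0103). Hnrnpa1-202 itself was then at 109, 89.9 and 142 RPKM. Hnrnpa3-201 was listed at 0 in the 3 knockout libraries of 12 months and at 8.42, 8.77 and 3.09 RPKM in wild type, while Hnrnpa3-202 went from 0.918, 0 and 3.21 to 40.0, 51.7 and 8.43. They differ by 183 coding bases found only in Hnrnpa3-201, and by 739 bases of 3′ UTR and 38 of 5′ UTR found only in Hnrnpa3-202. Hnrnph2-201 and Hnrnph2-202 have the same coding bases. Of 3′ UTR, 670 bases are found only in Hnrnph2-202, and of 5′ UTR 15 only in Hnrnph2-201 and 8 only in Hnrnph2-202. Hnrnph2-201 measured 35.19, 44.60 and 12.69 RPKM in 12-month wild type and 0.00, 0.14 and 0.26 in 12-month knockout, and it stood at 0.00, 35.40 and 0.00 in P28 knockout, the high value being replicate 2. Transcript values of such pairs are estimates that divide shared reads, and a listed 0 can be such an estimate.

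The classes of transcript were then summed. Shares were taken of the summed RPKM of the members' coding, NMD and retained-intron transcripts, leaving out other classes. NMD transcripts made up 8.79 to 9.48% in P28 wild type, 8.43 to 10.1% in P28 knockout, 9.69 to 10.2% in 12-month wild type and 6.30 to 7.99% in 12-month knockout. The 12-month knockout libraries were therefore the 3 lowest. Over all genes of the table NMD transcripts took 2.64 to 2.77%, 2.80 to 3.05%, 2.74 to 2.88% and 2.62 to 2.73% of the reads in the same order, so that there too the 12-month knockout lay below the 12-month wild type. Retained-intron transcripts made up 27.7 to 30.5%, 32.4 to 36.5%, 26.9 to 29.4% and 33.0 to 35.0% in the same order, higher in knockout than in wild type at both ages with no overlap. In Hnrnp genes the retained-intron share was 20.6 to 23.1% in P28 wild type, 24.7 to 30.4% in P28 knockout, 19.9 to 22.6% in 12-month wild type and 26.9 to 30.6% in 12-month knockout. In Srsf genes it was much larger throughout, at 46.9 to 49.3%, 51.6 to 53.5%, 46.8 to 48.6% and 46.3 to 48.2%, so that the knockout stood above wild type at P28 and overlapped it at 12 months. The NMD share of Srsf genes was 7.86 to 8.84% in 12-month wild type and 5.72 to 6.84% in 12-month knockout. Over all genes of the table, retained-intron transcripts took 6.35 to 6.95% of the reads in 12-month wild type and 6.51 to 6.99% in 12-month knockout, and 5.72 to 6.61% and 6.71 to 7.90% at P28. The shares over all genes are of the reads of every transcript. Those of the members are of the summed RPKM of coding, NMD and retained-intron transcripts, so their sizes do not compare. The members' retained-intron share was also taken of the reads of their coding, NMD and retained-intron transcripts. It was 19.7 to 21.0% in 12-month wild type and 22.9 to 23.2% in 12-month knockout. For Srsf genes alone it was 43.7 to 45.5% and 40.9 to 43.8%. No test was made on these shares.

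**Figure D4:**
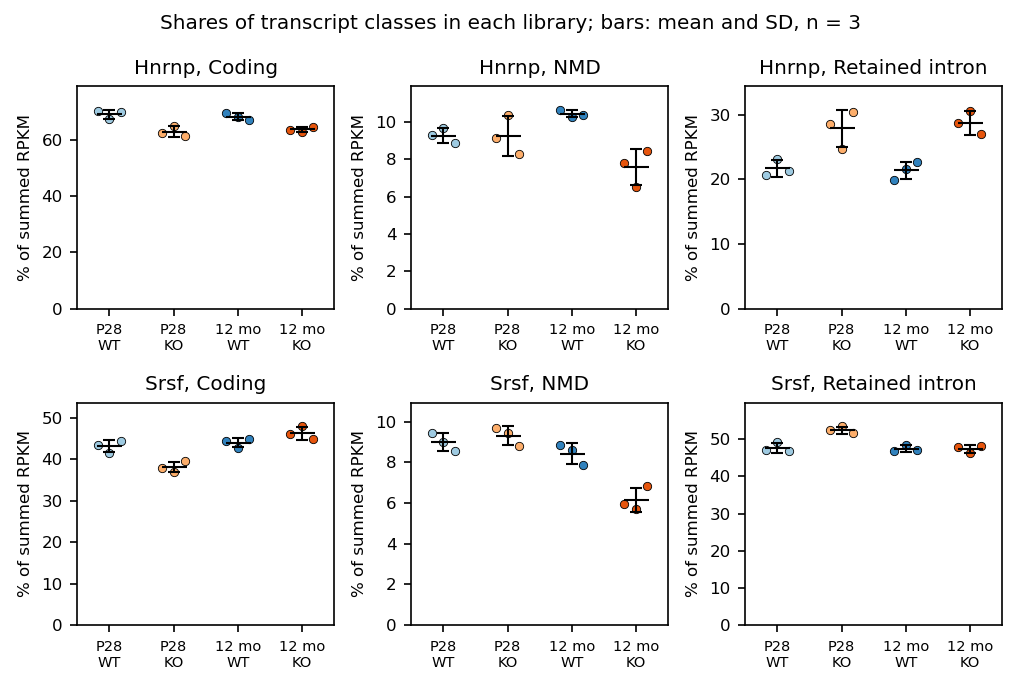
Coding, NMD and retained-intron transcripts as a percentage of the summed RPKM of these classes in the Hnrnp genes (upper row) and Srsf genes (lower row) in each library, with the mean and SD of each group of 3. The mean NMD share is lowest in the 12-month knockout in both rows, without overlap for Srsf genes and with 1 group overlapping for Hnrnp genes, and the retained-intron share is higher in knockout at both ages for Hnrnp genes but only at P28 for Srsf genes.

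Within each gene, the log2 ratio of NMD to coding RPKM (0.5 added to each) was taken. Where one sum is near 0 the ratio mainly follows the other, as for the NMD sums of Hnrnpdl, Hnrnpr, Srsf2 and Srsf9, which averaged under 0.5 RPKM in 12-month knockout. At 12 months the median difference over the 18 members tested was -0.61, against -0.04 over 1985 genes, with 14 members below 0. Without those 4 the median was -0.34 over 14 members, 10 of them below 0, a choice made after seeing the data. Of the 18, 3 fell (Srsf6, Srsf7 and Hnrnpu) and 1 rose (Srsf4), where 1.81% of genes fell and 1.86% rose. The ratio of Srsf7 was -3.78, -3.99 and -4.27 in P28 wild type, -2.76, -3.26 and -3.70 in P28 knockout, -3.31, -2.98 and -3.63 in 12-month wild type and -5.44, -5.94 and -4.50 in 12-month knockout, lowest in the 3 knockout libraries of 12 months, with a difference of -1.98 ± 0.37, adjusted p = 0.029. Srsf6 was also lowest in the 12-month knockout, with -2.73, -3.08 and -3.45 in 12-month wild type and -4.83, -5.58 and -4.47 in 12-month knockout and a difference of -1.87 ± 0.43, adjusted p = 0.0423. The poison-exon transcripts of both fell in level as well. Srsf7-203 measured 5.70, 7.31 and 4.96 RPKM in 12-month wild type and 1.91, 1.51 and 3.44 in 12-month knockout (-1.27 ± 0.28, adjusted p = 0.0177). Srsf6-201 measured 8.39, 7.22 and 6.03 RPKM in 12-month wild type and 2.73, 1.89 and 3.47 in 12-month knockout (-1.29 ± 0.24, adjusted p = 0.012), and it stood at 9.51, 12.1 and 7.64 in P28 knockout (-1.69 ± 0.24, adjusted p = 0.00327 for the change with age in knockout). Between the genotypes at 12 months the genes Srsf6 and Srsf7 rose, by 0.34 and 0.45. With GC and length trends removed these were 0.19 (adjusted p = 0.274) and 0.07 (adjusted p = 0.463), and with a sex term the call of Srsf6 was lost (adjusted p = 0.227).

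Hnrnpu-206, whose stop lies in an exon that overlaps a coding one, measured 35.3, 37.5 and 24.1 RPKM in 12-month wild type and 9.88, 2.30 and 13.5 in 12-month knockout (-2.12 ± 0.52, adjusted p = 0.0239), and the ratio of Hnrnpu changed by -2.26 ± 0.48, adjusted p = 0.0329. For Srsf4 the NMD sum was similar in both genotypes and the coding sum was lower in knockout. Its coding transcripts summed to 9.75, 6.57 and 6.90 RPKM in 12-month wild type and 2.91, 0.616 and 2.23 in 12-month knockout and its NMD transcripts to 17.1, 15.2 and 16.0 in 12-month wild type and 16.8, 12.8 and 16.4 in 12-month knockout, and the ratio rose by 1.82 ± 0.32, adjusted p = 0.029. The poison-exon transcripts Srsf3-201 (0.29 ± 0.28, adjusted p = 0.494), Hnrnpl-213 (-0.17 ± 0.11, adjusted p = 0.309), Hnrnpll-203 (-0.01 ± 0.11, adjusted p = 0.961) and Srsf4-203 (0.01 ± 0.16, adjusted p = 0.984) did not pass. NMD transcripts of Hnrnpa1 went both ways, Hnrnpa1-203 by -0.96 ± 0.18 and Hnrnpa1-204 by 0.41 ± 0.10, and both passed.

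With age in knockout the NMD ratio fell for Srsf3, Srsf6 and Srsf7, where 0.856% of genes fell. The ratio of Srsf3 was -1.01, -0.64 and -1.08 in P28 wild type, 0.17, -1.35 and -0.11 in P28 knockout, -1.72, -2.12 and -2.10 in 12-month wild type and -2.24, -2.60 and -2.02 in 12-month knockout. The 12-month libraries of both genotypes lay below all P28 libraries, and P28 knockout replicate 2 stood apart from the other 2 of its group (-1.86 ± 0.36, adjusted p = 0.0339). No NMD ratio was called at P28 (3 members at an unadjusted p under 0.05, 0.101% of genes called) or for the difference between the ages (8 members at that p, 0.0504% called). These calls with age held in 4, 2 and 5 of 12 fits that left out 1 library, for Srsf3, Srsf6 and Srsf7, and none held with a sex term. The calls between genotypes at 12 months were not stable either. None was left with a sex term, or without 12-month wild-type replicate 1 or 2 or knockout replicate 2, and the adjusted p without one library ran from 0.0123 to 0.115 for Srsf7 and from 0.0152 to 0.151 for Srsf6. Without one library the estimates ran from -2.38 to -1.66 for Srsf7 and from -2.11 to -1.56 for Srsf6. Their sign could not change there, since the 12-month libraries of both genotypes did not overlap. These refits were chosen after seeing the data.

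**Figure D5:**
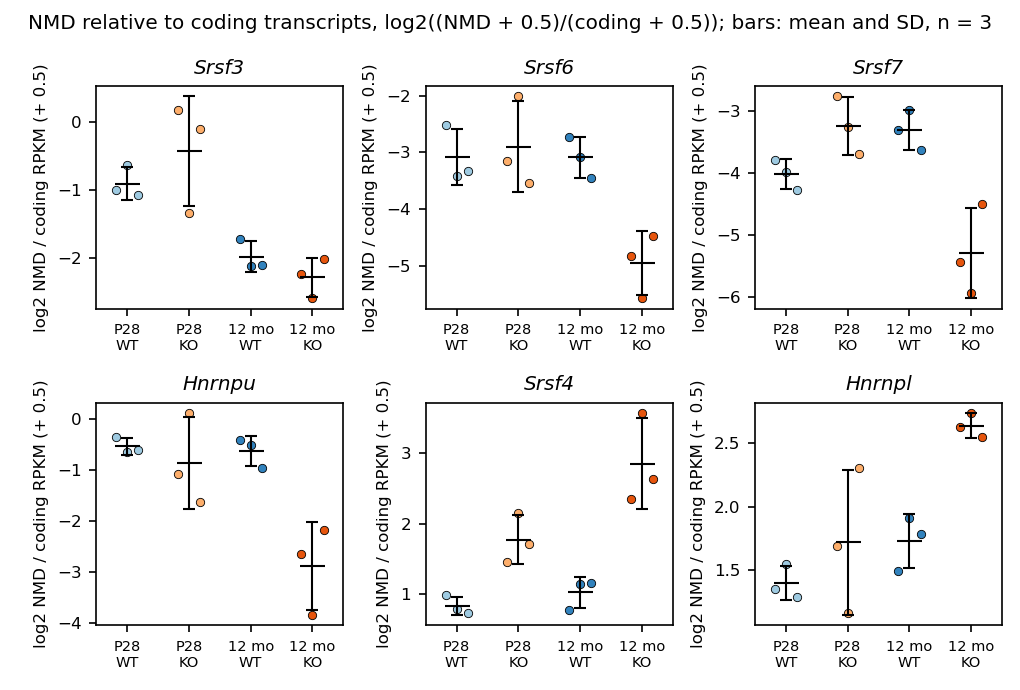
log2 ratio of summed NMD to summed coding RPKM (0.5 added to each) in every library for 6 members, with the mean and SD of each group of 3. The 12-month knockout libraries are the lowest 3 for Srsf6, Srsf7 and Hnrnpu and the highest 3 for Srsf4 and Hnrnpl, while Srsf3 is lower at 12 months than at P28 in both genotypes. The coding sum of Hnrnpl includes Hnrnpl-202, which was lower in the 12-month knockout than in wild type.

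For NMD plus retained-intron transcripts against coding ones, 4 of 23 members rose at 12 months and 1 fell, where 7.43% of 5721 genes rose and 1.52% fell. These were Srsf4 (1.86 ± 0.33, adjusted p = 0.0164), Srsf5 (0.85 ± 0.20, adjusted p = 0.0262), Hnrnpm (1.03 ± 0.26, adjusted p = 0.0345) and Hnrnpl (0.81 ± 0.22, adjusted p = 0.0405), and Hnrnpu fell (-1.10 ± 0.25, adjusted p = 0.0262). In Srsf5 the coding sum was 92.5, 79.2 and 84.7 RPKM in P28 wild type, 50.8, 52.6 and 52.1 in P28 knockout, 88.5, 80.6 and 74.4 in 12-month wild type and 60.1, 58.8 and 57.1 in 12-month knockout. It was lower in knockout than in wild type at both ages, while its retained-intron sum was 163, 180.1 and 180.1 RPKM in 12-month wild type and 226, 236 and 223 in 12-month knockout. Hnrnpm's retained-intron sum was 21.4, 25.5 and 31.7 RPKM in 12-month wild type and 50.5, 72.0 and 50.2 in 12-month knockout, with coding sums of 122, 139 and 112 in 12-month wild type and 140.2, 134 and 122 in 12-month knockout. The coding sum of Hnrnpl includes Hnrnpl-202, which fell at 12 months (-4.77 ± 0.30) and whose values divide reads shared with other transcripts. Its poison-exon transcript Hnrnpl-213 did not pass. The median over all genes was itself above 0, at 0.21 at P28 and 0.16 at 12 months, against 0.35 and 0.05 for the members. No member passed at P28, where 0.0874% of genes did and 9 members were at an unadjusted p under 0.05. With age in knockout Srsf3 fell (-1.43 ± 0.21, adjusted p = 0.0173), where 0.891% of genes were called. In wild type no member was called with age (1 at an unadjusted p under 0.05, 0.035% of genes called), nor for the difference between the ages (5 at that p). The calls of Srsf4, Srsf5, Hnrnpm, Hnrnpl, Hnrnpu and Srsf3 were each lost on leaving out at least 1 library (at 12 months 0 members were called without wild-type replicate 1 or knockout replicate 2, and 8 without P28 knockout replicate 2), and with retained introns alone the change of Hnrnpu was 0.06.

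Other genes of the splicing machinery, in lists chosen with earlier results known, were counted in the same fit at 12 months, where 16.1% of all genes rose and 23.5% fell. Of 7 SR protein kinases, which phosphorylate the arginine/serine domain, 3 rose and 2 fell, with Clk4 at 0.61 ± 0.10, Clk1 at 0.47 ± 0.11 and Srpk2 at 0.38 ± 0.08. Among 17 SR-related proteins 9 rose and 1 fell, led by Rbm39 (0.53 ± 0.11), Luc7l2 (0.61 ± 0.15) and Bclaf1 (0.34 ± 0.08). Of 8 hnRNP proteins under other symbols Syncrip (0.46 ± 0.12) and Rbmx (0.23 ± 0.08) rose and Ptbp1, the polypyrimidine tract repressor, fell by 0.49 ± 0.14. Neural splicing regulators gave 12 rises and 4 falls in 25, among them Mbnl1 (0.76 ± 0.14), Mbnl2 (0.66 ± 0.11) and Celf3, which fell by 0.91 ± 0.16. The 32 genes of the core snRNPs and of splice site recognition had 1 rise (Sf3b1, 0.44 ± 0.09) and 13 falls, Sf3a2 by 1.04 ± 0.19 and Snrpd3 by 0.92 ± 0.18. Of 10 NMD factors 2 rose and 4 fell, including Upf2 (0.43 ± 0.10), Upf1, the helicase that drives decay, which fell by 0.93 ± 0.18, and Smg9, which fell by 1.17 ± 0.19. With GC and length trends removed the calls were 1 rise among the kinases, 1 among SR-related proteins, 2 among the other hnRNP proteins, 2 falls in the core list and none among neural regulators or NMD factors, where 2.26% of all genes rose and 2.18% fell. At P28 the lists held 2 calls in all, Srpk2 (0.37 ± 0.08) and Smg1 (0.46 ± 0.10), both higher in knockout, where 1.0% of all genes were higher.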

How the data were processed

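RNA of 12 retina libraries was sequenced from a stranded poly(A) preparation, per the labels' protocols, and kallisto 0.45.0 and edgeR 4.0.3 are named in the submitters' processing notes. The gene table holds signal values, reads scaled to effective library sizes, as deposited by the authors (written CPM), and the transcript table holds RPKM as deposited by the authors. The notes name a human build, but 51903 of 53028 gene identifiers are mouse ones of GENCODE M21 (GRCm38), from which exons, sequences, GC content and length were taken. No counts were used, so no count model was fitted.

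limma 3.58.1 (R 4.3.3) was fitted to log2(CPM + 1) of the 16486 genes with at least 1 CPM in 3 libraries or more, to log2(RPKM + 0.5) of 46931 transcripts with at least 0.5 RPKM in 3 or more, and to log2 ratios of summed classes (0.5 added), with 4 group means, a trended spread for genes and transcripts, and Benjamini-Hochberg adjustment over all features at 0.05. Adjusted p-values in the text are from these fits, and a value after ± is a standard error unless marked SD. A fold change on these scales understates the change of low features. The fits were tested on simulated data. The members and lists were chosen with earlier results of these data known. Named in full were the 6 genes, 5 transcripts and 4 ratios of smallest adjusted p per comparison (genes without overlapping libraries, except for the difference between ages) and the 3 most and 3 least abundant members. Alternatives were other pseudocounts, filters and scalings, a replicate block, a sex term, removal of GC and length trends, and each library left out.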

Additional observations from a re-analysis of the deposited data

Results flagged for a closer look

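The knockout effect differed between 12 months and P28 for 3 member genes and 1 member transcript, by limma's test of the difference itself. The effect at 12 months minus that at P28 was 0.78 ± 0.11 for Hnrnpa1 (adjusted p = 0.0244), 0.79 ± 0.12 for Hnrnpdl (adjusted p = 0.0410) and 0.80 ± 0.13 for Srsf3 (adjusted p = 0.0410) on the log2(CPM + 1) scale. For the coding transcript Hnrnpl-202 it was -4.02 ± 0.43 on the log2(RPKM + 0.5) scale (adjusted p = 0.0183), a value that depends on the pseudocount, since 2 of its 3 knockout libraries of 12 months were listed at 0. With a sex term or a replicate block no member gene or transcript was called for this difference.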

How the results depend on the processing

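Of the values under another setting, 198 counts of calls stayed within 1.5 times the count reported and 119 did not, and of the results named in full 1 changed sign: the Hnrnpu ratio at 12 months, 0.0576 with retained introns alone. With GC content and length trends removed, the 12-month estimates of 5 other members changed sign as well: Hnrnph2 (-0.04) and Hnrnpul1 (0.06), which were called, and Hnrnpa1 (-0.03), Hnrnpc (-0.18) and Srsf4 (0.06), which were not. The cause of the shifts below was not tested, apart from fewer libraries or features in a fit. Median-of-ratios scaling and other pseudocounts moved no count by more than 1.5 times. Of the results named in full, 12 of 17 genes, 9 of 13 transcripts and 0 of 5 ratios were called without any one library. Depth limits rare transcripts most, since 3 reads equal 0.111 to 0.192 CPM.

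Member genes called at P28 (1 in the fit reported) numbered 0 with only the groups compared (2 at an unadjusted p under 0.05), 0 with a sex term (4 at that p) and 3 with GC content and length trends removed, and 0 to 3 without one library: 0 without P28 wild-type replicate 1 or 3 and 3 without P28 knockout replicate 2. At 12 months (22) they numbered 5 with the trends removed, 0 with the trends removed and a sex term (11 at that p), and 13 to 24 without one library. With age in wild type (1) they numbered 0 with no expression filter (5 at that p), 0 with the replicate block (4), 2 with only the groups compared, 0 with a sex term (2), 2 with the trends removed, 0 on summed transcript RPKM (3), and 0 to 1 without one library. With age in knockout (16) they numbered 7 with only the groups compared and 10 to 21 without one library. For the difference between ages (3) they numbered 1 with no expression filter, 0 with the replicate block (13 at that p), 0 with a sex term (6), 0 with the trends removed (11), 0 with the trends removed and a sex term (6), 1 on summed transcript RPKM, and 0 to 13 without one library.

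Member transcripts called at P28 (2) numbered 1 with no expression filter, 0 with the replicate block (29 at that p), 0 with a sex term (27) and 0 to 11 without one library, 11 being without P28 knockout replicate 2, 1 without P28 knockout replicate 1, 12-month wild-type replicate 1 or 2 or 12-month knockout replicate 1, and 0 without any P28 wild-type library, P28 knockout replicate 3 or 12-month wild-type replicate 3. At 12 months (64) they numbered 36 with no expression filter, 25 with a sex term and 4 to 97 without one library. With age in wild type (0) the range without one library was 0 to 3. With age in knockout (33) they numbered 15 with a sex term and 12 to 51 without one library, 12 being without 12-month knockout replicate 2, 20 without replicate 1 of either knockout group and 51 without P28 knockout replicate 3. For the difference between ages (1) they numbered 0 with the replicate block (60 at that p), 0 with a sex term (35) and 0 to 3 without one library, 0 without any wild-type library, P28 knockout replicate 1 or 12-month knockout replicate 2, 2 without P28 knockout replicate 2 and 3 without P28 knockout replicate 3.

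Member ratios called at 12 months (5) numbered 3 with the replicate block, 1 with a sex term and 0 to 8 without one library, 8 being without P28 knockout replicate 2, 3 and 2 without 12-month knockout replicates 3 and 1, 1 without 12-month wild-type replicate 2 or 3, and 0 without 12-month wild-type replicate 1 or knockout replicate 2. With age in knockout (1) they numbered 4 with no expression filter, 0 with a sex term (10 at that p), 3 with NMD transcripts only and 0 to 4 without one library, 0 without P28 knockout replicate 1 or 12-month knockout replicate 2 and 4 without P28 knockout replicate 3. With NMD transcripts only, the 12-month count (4) was 2 with the replicate block and 0 with a sex term (10 at that p), and 0 to 5 without one library: 0 without 12-month wild-type replicate 1 or 2 or 12-month knockout replicate 2, 1 without 12-month knockout replicate 1, 2 without P28 wild-type replicate 2 or 3 or 12-month wild-type replicate 3, and 3 without P28 knockout replicate 1. With NMD transcripts only, the count with age in knockout (3) was 0 with the replicate block (11 at that p) and 0 with a sex term (12), and 0 to 4 without one library: 4 without P28 knockout replicate 3 or 12-month knockout replicate 3, 2 without 12-month wild-type replicate 1 or 3, 1 without P28 wild-type replicate 1 or P28 knockout replicate 2, and 0 without any of the other 6.

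Replicate numbers showed no sign of pairing the libraries, though a check on 3 libraries per group cannot exclude it. Deviations of same-numbered libraries correlated at -0.357 to 0.308, 4 of 18 such correlations were over 0.1, and 4 of 12 libraries correlated best with their own number. With the replicate block, 20 member genes were called at 12 months and 14 with age in knockout.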
